A study of Mus musculus with 6 samples.

Results

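The collagen gene family was followed in whole lung of wild-type mice and of mice lacking Nogo-A and Nogo-B, the long protein products of the reticulon gene Rtn4. Its members were taken as every gene that the array named with the symbol pattern Col, a number, a and a number (Col1a1, for example). That pattern matched 78 probes for 40 genes among the 27951 genes named on the array, and the brightest probe by mean signal stood for each gene. A gene was compared between genotypes when the scanner software had flagged that probe as well above background for 3 or more of the 6 lungs. Of the 40 collagen genes 37 passed, among 20423 genes in all. The lungs came from naïve male mice aged 8 weeks, 3 wild-type animals (named wild type 11, 12 and 13) and 3 Nogo-A/B knockouts (named knockout 1, 11 and 12), each hybridised to an Agilent 1-colour 60-mer array. The labels call the lungs individual biological replicates. The strain, the knockout allele and whether the wild-type mice were littermates were not given in the sources used here. The series title places the study in asthma research, but the lungs compared here were untreated.

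The scanner files put the arrays in 2 scan days and on 3 slides. Wild type 13, knockout 1 (both on the first slide) and knockout 11 (on the second) were scanned on the earlier day, called scan day 1. Wild type 11, wild type 12 and knockout 12 shared the third slide and were scanned on scan day 2, so that slide and that day cannot be told apart. Each array had 68.9% to 78.0% of its probes well above background, and between 35 and 38 of the 40 collagen genes had such a probe. A probe of the Rtn4 locus (AK047982) carried that flag in 3 of the 3 wild-type lungs and 0 of the 3 knockout lungs, which matches the labels. Levels below are log2 signals relative to each array's 75th percentile, so a value of 0 is the level of the 75th percentile and a difference of 1 is a 2-fold change. A probe's brightness also depends on its sequence, so levels were compared between lungs and not between genes. In whole lung, fewer cells of a type and less RNA per cell cannot be told apart.

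Collagens are the main structural proteins of the extracellular matrix. Their chains wind around one another in a rigid helix, built from repeats of glycine followed by a pair of other residues, in which proline and hydroxyproline are common. Fibrillar collagens give lung tissue its tensile strength, type IV collagens form the network of the basement membranes on which alveolar epithelium and capillary endothelium rest, and smaller classes link, organise or anchor these structures. Fibroblasts, smooth muscle, endothelium, epithelium and mesothelium all contribute collagens in lung, and the cartilage of the large airways has collagens of its own.

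The glycine repeat could be read in the array's own probes. Glycine codons begin with GG, so a probe lying wholly within the helix carries GG every 9 bases over its whole length. This pattern was found in 3 of the 78 collagen probes (3.85%) and in 0 of the 41096 other probes. These 3 sequences are shown because they are the repeat by which the family is recognised, with the GG of each glycine codon in capitals, 5′ to 3′ on the mRNA strand, at their mm7 positions.

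Col5a1, chr2:27994034-27996457, plus strand: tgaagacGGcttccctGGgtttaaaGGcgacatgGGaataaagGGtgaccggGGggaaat
Col5a3, chr9:20655471-20656200, minus strand: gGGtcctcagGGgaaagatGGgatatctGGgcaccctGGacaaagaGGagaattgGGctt
Col11a2, chr17:32131401-32131567, plus strand: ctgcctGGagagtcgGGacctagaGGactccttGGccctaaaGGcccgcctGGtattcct

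Each of these probes covers a stretch of genome longer than its own 60 bases, and so spans an exon junction. None was the brightest probe of its gene, and their mean signals were low, at 80.4, 24.2 and 43.8 in the order shown. The Col5a3 probe was well above background on 4 arrays and the others on 6. The knockout minus wild-type differences were 0.48 ± 0.30 (SE) for the Col5a1 probe, 0.40 ± 0.28 for the Col5a3 probe and 0.23 ± 0.31 for the Col11a2 probe. The unadjusted p-values of limma's moderated test were 0.154, 0.203 and 0.490, so none of these differences stood out from the spread between lungs. The brightest probes of Col5a1, Col5a3 and Col11a2 had differences of the other sign, at -0.07, -0.10 and -0.07.

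No collagen gene was found to differ between knockout and wild-type lungs. With limma's moderated test and Benjamini-Hochberg adjustment over the 20423 genes, 0 of the 37 measured collagens passed an adjusted p of 0.05, against 0% of all genes. At an unadjusted p under 0.05 the count was again 0 of 37, where 0.95% of all genes passed, and the smallest p among the 37 was 0.155, for Col17a1. Across all genes the lowest adjusted p of the limma fit was 0.060, so no gene passed. The Rtn4 locus probe, flagged in the wild-type lungs alone, was thus not called either. The adjusted p was 0.9998 for every measured collagen. The fitted differences ran from -0.62 for Col12a1, 1.53-fold lower in the knockout mean, to 0.46 for Col17a1, 1.37-fold higher. The signs were evenly divided, with 18 collagens below 0 and 19 above, where 45.4% of all genes were below 0. With each array scaled to its median in place of the 75th percentile, 22 of the 37 collagens and 55.6% of all genes were below 0. The median difference was 0.0010 over the collagens and 0.024 over all genes, and the median absolute difference was 0.13 and 0.15. The 3 knockout values and the 3 wild-type values overlapped for every measured collagen, whereas 4.19% of all genes had groups that did not overlap (1.47% with the knockout lower and 2.72% with it higher).

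Without scan day in the fit, these data limit large changes for many collagens and small changes for almost none. The 95% interval of the difference lay within a 2-fold change in either direction for 24 of the 37 collagens and reached past it for the other 13. It lay within 0.5 on the log2 scale for 1 collagen, Col18a1. The median SE was 0.29 over the collagens and 0.26 over all genes. With scan day added to the fit, the SE was smaller for some collagens. It was 0.20 against 0.64 for Col8a1, 0.21 against 0.57 for Col15a1 and 0.16 against 0.45 for Col12a1. For others it was larger, such as Col1a1 (0.38 against 0.36) and Col28a1 (0.68 against 0.60). Intervals of that fit are not given here. Leaving out wild type 13 gave 7 collagens whose groups did not overlap (29.0% of all genes), and leaving out knockout 12 gave 6 (21.6% of all genes).

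**Figure D1:**
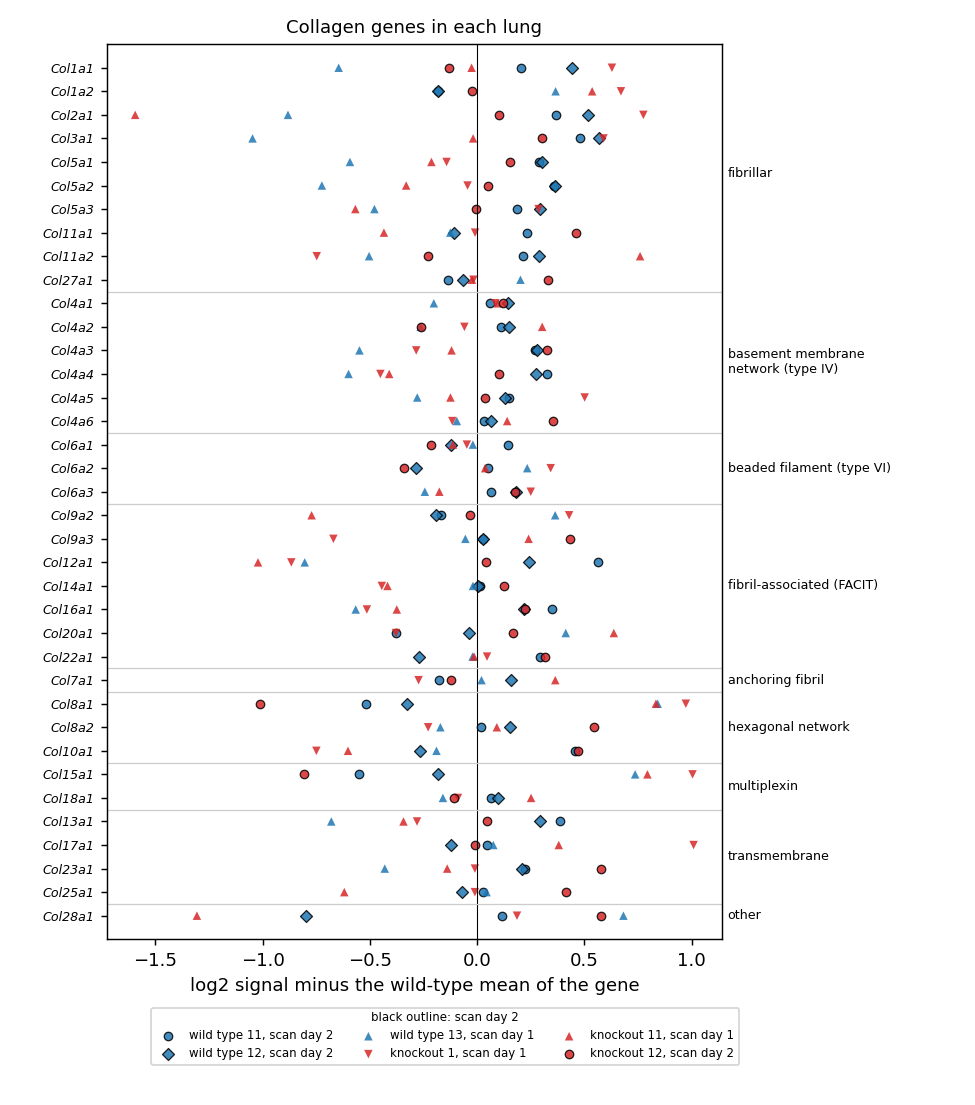
Each row is 1 of the 37 measured collagen genes, grouped by class, and each point is 1 lung, at its log2 signal minus the wild-type mean of the gene (horizontal axis). Blue points are wild-type lungs, red points knockout lungs, and a black outline marks scan day 2. The red and blue points overlap in every row, and in rows such as Col8a1, Col12a1 and Col15a1 the outlined points stand apart from the others.

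**Figure D2:**
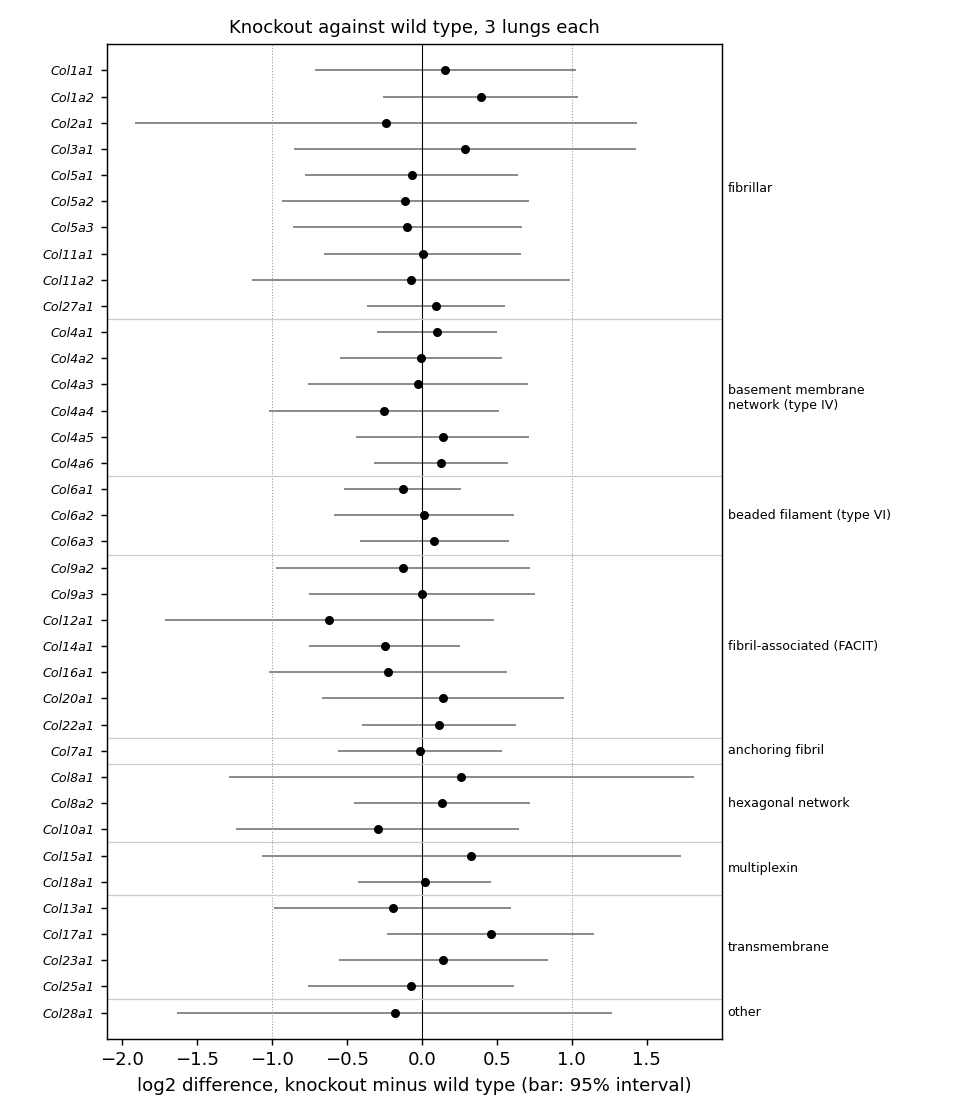
Knockout minus wild-type difference on the log2 scale (horizontal axis) for the 37 measured collagen genes, 3 lungs in each group. Points are fitted differences, bars their 95% intervals, and dotted lines mark a 2-fold change; every bar crosses 0, and 13 bars reach past a dotted line.

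Among the fibrillar collagens, 10 of 11 genes were measured, 5 with a fitted difference above 0 and 5 below, with a median of -0.03. In what follows, the values of a gene are its log2 levels in wild type 11, 12 and 13 and then in knockout 1, 11 and 12. Col1a1, which encodes the more abundant chain of type I collagen (chr11:95060800-95060859), had levels of 3.998, 4.24 and 3.15 in wild-type lungs and 4.42, 3.77 and 3.66 in knockout lungs. Wild type 13 was the lowest lung and knockout 1 the highest, and the groups overlapped. The group means were 3.79 ± 0.57 (SD, n = 3) and 3.95 ± 0.41, a difference of 0.16 ± 0.36 (SE) with a 95% interval of -0.71 to 1.03. Col1a2, the partner chain of type I collagen (chr6:4493505-4493564), had levels of 4.37, 4.37 and 4.92 in wild-type lungs and 5.23, 5.09 and 4.53 in knockout lungs. Its 3 highest lungs were those of scan day 1, of either genotype. The difference was 0.39 ± 0.27, with an interval of -0.26 to 1.04, and 0.20 with scan day in the model. Col3a1, the chain of type III collagen that forms fine fibrils in distensible tissue (chr1:45585395-45585454), had levels of 4.86, 4.94 and 3.33 in wild-type lungs and 4.96, 4.36 and 4.68 in knockout lungs. Wild type 13 lay below every other lung, and the groups overlapped. The Col3a1 difference of 0.29 ± 0.47 had an interval of -0.85 to 1.43.

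The type V and type XXVII genes had smaller differences. Col5a1, Col5a2 and Col5a3, whose chains join type I fibrils and limit their width, had differences of -0.07, -0.11 and -0.10, and for all 3 the wild-type lungs of scan day 2 were above wild type 13. Col27a1 had a difference of 0.10 ± 0.19.

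All 6 type IV genes were measured, 3 above 0 and 3 below, with a median difference of 0.05. Col4a1 and Col4a2 encode the chains found in nearly all basement membranes, and RefSeq (GRCm38.p6) places their start sites head to head, 21 bases apart. Col4a1 (chr8:11167020-11167079) had levels of 3.62, 3.70 and 3.36 in wild-type lungs and 3.64, 3.65 and 3.68 in knockout lungs. The knockout lungs were nearly equal and lay inside the wild-type range. Its difference was 0.10 ± 0.16 with an interval of -0.30 to 0.50. Col4a2 (chr8:11416851-11416910) had levels of 4.21, 4.25 and 3.83 in wild-type lungs and 4.04, 4.40 and 3.84 in knockout lungs. The groups covered nearly the same range, and the difference was -0.01 ± 0.22.

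Col4a3 and Col4a4 encode chains of the network found in alveolar and glomerular basement membranes. Col4a3 (chr1:82929885-82929944) had levels of 2.22, 2.22 and 1.40 in wild-type lungs and 1.66, 1.83 and 2.27 in knockout lungs. Col4a4 (chr1:82661529-82661590) had levels of 2.42, 2.37 and 1.50 in wild-type lungs and 1.65, 1.69 and 2.20 in knockout lungs. On the brightest probe of both genes the 3 lungs of scan day 2 were the 3 highest, and wild type 13 the lowest. Their genotype differences were -0.03 ± 0.30 and -0.25 ± 0.31, and 0.20 and -0.02 with scan day in the model. The other measured Col4a3 probe also had the scan day 2 lungs highest. The other Col4a4 probe, with a mean signal of 5557 against 7652, did not. On it knockout 1 (1.65) lay above wild type 11 (1.49), and the genotype difference was 0.19 ± 0.22. Col4a6, a chain of smooth muscle and epithelial basement membranes (chrX:135829764-135829823), had levels of 0.86, 0.89 and 0.73 in wild-type lungs and 0.71, 0.97 and 1.19 in knockout lungs. These groups overlapped too, with a difference of 0.13 ± 0.18. Col4a5, whose chain joins those of Col4a3 and Col4a4, had a difference of 0.14 ± 0.24.

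Type VI collagen forms beaded filaments between fibrils and basement membranes, and its 3 main chains were measured. Col6a1 (chr10:76364050-76364109) had levels of 2.87, 2.61 and 2.71 in wild-type lungs and 2.68, 2.62 and 2.51 in knockout lungs. The lowest lung was a knockout and the highest a wild type, the rest overlapped, and the difference was -0.13 ± 0.16 with an interval of -0.52 to 0.26. Col6a2 (chr10:76251837-76251896) had levels of 0.25, -0.09 and 0.43 in wild-type lungs and 0.54, 0.23 and -0.15 in knockout lungs. Each group held lungs both above and below those of the other, and the difference was 0.01 ± 0.25. Col6a3 (chr1:90671098-90671157) had levels of 2.84, 2.96 and 2.54 in wild-type lungs and 3.03, 2.60 and 2.95 in knockout lungs. Its difference of 0.08 ± 0.20 had an interval of -0.41 to 0.58.

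The cartilage collagens (Col2a1, Col9a1, Col9a2, Col9a3, Col10a1, Col11a1 and Col11a2) were followed as a group because bulk lung can carry more or less of the airway cartilage. Of these, 6 of 7 were measured, 2 above 0 and 4 below, with a median difference of -0.10. Col2a1, the chain of the main cartilage fibril (chr15:97979237-97979296), had levels of 1.48, 1.63 and 0.23 in wild-type lungs and 1.89, -0.48 and 1.22 in knockout lungs. Knockout 1 was the highest lung and knockout 11 the lowest, a knockout range of 2.37, which is wider than the distance between the genotypes. The Col2a1 difference was -0.24 ± 0.69 with an interval of -1.91 to 1.43, the widest of the measured collagens. Col9a2, a chain of the type IX collagen that coats cartilage fibrils, had levels of -4.25, -4.28 and -3.72 in wild-type lungs and -3.66, -4.86 and -4.12 in knockout lungs. Col9a3, its partner, had levels of -4.51, -4.51 and -4.59 in wild-type lungs and -5.21, -4.30 and -4.11 in knockout lungs. Knockout 1 was the highest lung for Col9a2 and the lowest for Col9a3, and the differences were -0.13 ± 0.35 and 0.00 ± 0.31.

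Col11a1, a chain of the type XI collagen at the core of cartilage fibrils, had levels of -4.77, -5.11 and -5.13 in wild-type lungs and -5.01, -5.44 and -4.54 in knockout lungs. Col11a2 had levels of -2.33, -2.26 and -3.05 in wild-type lungs and -3.29, -1.78 and -2.77 in knockout lungs. For both genes the highest and the lowest lung were knockouts, and the differences were 0.01 ± 0.27 and -0.07 ± 0.43. Col10a1, made by hypertrophic chondrocytes (chr10:34176400-34176459), had levels of -5.79, -6.51 and -6.43 in wild-type lungs and -6.99, -6.85 and -5.77 in knockout lungs. It was well above background in wild type 11, wild type 13 and knockout 12 alone, so its difference of -0.29 ± 0.39 rests on dim signals. Of the chondrocyte marker genes, 5 of the 11 on the array were measured, 1 above 0 and 4 below; Matn1, Matn3, Hapln1, Lect1 and Sox5, which mark cartilage cells, were not. The part of cartilage in the Col2a1 spread was not tested.

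The fibril-associated collagens, which sit on the surface of fibrils or bridge them to other matrix, had 7 of 9 genes measured, 3 above 0 and 4 below, and a median difference of -0.13. Col12a1 (chr9:79680905-79680964) had levels of -2.85, -3.17 and -4.21 in wild-type lungs and -4.28, -4.43 and -3.37 in knockout lungs. The lungs divided by scan day and not by genotype: each of the 3 lungs of scan day 2 lay above each of the 3 of scan day 1. Its knockout minus wild-type difference of -0.62 ± 0.45 (interval -1.71 to 0.48) was -0.25 with scan day in the model. Col14a1, which decorates type I fibrils (chr15:55583816-55583875), had levels of 1.08, 1.08 and 1.05 in wild-type lungs and 0.63, 0.65 and 1.20 in knockout lungs. Here knockout 1 and 11 lay below the wild-type lungs and knockout 12 above them, with a difference of -0.25 ± 0.21, or -0.15 with scan day in the model. Col16a1, another fibril-associated chain (chr4:129543748-129543807), had levels of 3.43, 3.30 and 2.52 in wild-type lungs and 2.57, 2.71 and 3.31 in knockout lungs. As with Col12a1, the scan day 2 lungs were the 3 highest, and the difference was -0.22 ± 0.33. With scan day in the model the Col16a1 difference was 0.03.

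Of the transmembrane collagens, 2 of 4 were above 0 and 2 below. Col17a1, the hemidesmosome collagen of basal epithelial cells (chr19:47546901-47546960), had levels of -1.93, -2.10 and -1.90 in wild-type lungs and -0.97, -1.60 and -1.99 in knockout lungs. The wild-type lungs were close together, and the 2 knockout lungs of scan day 1 were above them while knockout 12 lay inside their range. The difference of 0.46 ± 0.28 had an interval of -0.23 to 1.15. The airway basal cell markers had 6 of 7 measured members below 0 and 1 above, with a median of -0.21. Krt15, a keratin of those cells, was at -3.61, -4.99 and -4.22 in wild-type lungs and -5.15, -6.23 and -5.77 in knockout lungs, a difference of -1.44 ± 0.43 with an unadjusted p of 0.0150 in the limma fit.

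Col8a1, Col28a1 and Col15a1 had the next widest intervals after Col2a1. Col8a1, a short-chain network collagen of vessel walls (chr16:57488371-57488430), had levels of -0.44, -0.25 and 0.92 in wild-type lungs and 1.05, 0.91 and -0.94 in knockout lungs. Col15a1, a basement membrane zone collagen of muscle and capillaries (chr4:47326045-47326104), had levels of -4.34, -3.97 and -3.05 in wild-type lungs and -2.78, -2.99 and -4.59 in knockout lungs. In both cases the 3 lungs of scan day 1 were the 3 highest, and knockout 12 the lowest. Their differences of 0.26 ± 0.64 and 0.33 ± 0.57 became -0.27 and -0.14 with scan day in the model. Col28a1 (chr6:7970935-7972347) had levels of -6.73, -7.64 and -6.16 in wild-type lungs and -6.65, -8.15 and -6.26 in knockout lungs. It was well above background in wild type 13, knockout 1 and knockout 12 alone, and its interval reached from -1.63 to 1.27.

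The other 13 measured collagens were Col4a5, Col5a1, Col5a2, Col5a3, Col7a1, Col8a2, Col13a1, Col18a1, Col20a1, Col22a1, Col23a1, Col25a1 and Col27a1. Their differences ran from -0.19 to 0.14 with SEs of 0.18 to 0.34 and unadjusted limma p-values of 0.573 to 0.968. Col7a1, the anchoring fibril of the basement membrane zone, had a difference of -0.01 ± 0.22, and Col18a1, the source of endostatin, one of 0.02 ± 0.18. Col9a1, Col19a1 and Col24a1 were not compared: Col9a1 was well above background in wild type 13 alone, and Col19a1 and Col24a1 in knockout 1 alone. Col19a1 stood at -8.44, -8.56 and -6.64 in wild-type lungs and -5.60, -8.64 and -8.53 in knockout lungs, of which only the knockout 1 value was a measured level. Col9a1 stood at -6.76, -6.40 and -6.39 in wild-type lungs and -7.11, -7.34 and -6.38 in knockout lungs. Col24a1 stood at -6.92, -6.57 and -6.59 in wild-type lungs and -6.16, -8.07 and -7.27 in knockout lungs.

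Genotype was then compared within each scan day, since both days held both genotypes. Within scan day 1 (2 knockout lungs against wild type 13) the median collagen difference was 0.16, where all genes had -0.04. Within scan day 2 (knockout 12 against 2 wild-type lungs) it was -0.06, where all genes had 0.09. Of the 37 collagens, 12 had a single sign in both days, 3 lower and 9 higher, against 35.9% of all genes (13.9% lower, 22% higher), and the other 25 changed sign. The fibrillar class had a median of 0.44 within scan day 1 and -0.23 within scan day 2. Col1a1 went from 0.95 to -0.46 and Col3a1 from 1.33 to -0.22, and in both cases the scan day 1 value rests on wild type 13, the lowest lung. Type IV collagens had medians of 0.32 and -0.04.

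**Figure D3:**
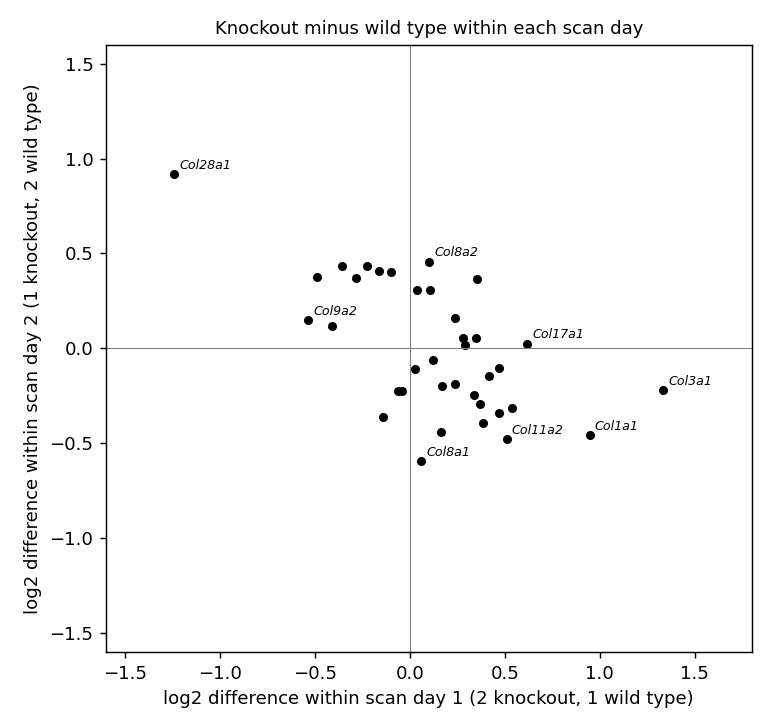
Knockout minus wild-type log2 difference within scan day 1 (horizontal axis, 2 knockout lungs against 1 wild type) and within scan day 2 (vertical axis, 1 knockout lung against 2 wild types) for the 37 measured collagens. Each point is a gene; 25 of the points lie in the upper left or lower right of the plot, where the days differ in sign, with Col28a1 and Col3a1 farthest out.

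With scan day as a block in the fit, 1 of the 37 collagens had an unadjusted p under 0.05, against 2.16% of all genes, and 0 passed the adjusted threshold. That collagen was Col23a1, a transmembrane collagen (chr11:51540140-51540199) singled out after its values were seen. Its levels were 1.82, 1.81 and 1.17 in wild-type lungs and 1.59, 1.46 and 2.18 in knockout lungs. On this brightest probe, knockout lungs were above the wild-type lungs of their own day on both days, by 0.36 each time. The blocked limma p was 0.0367 with an adjusted p of 0.999. On the other Col23a1 probes knockout 12 was again above the wild-type lungs of its day. Both knockout lungs of scan day 1, however, lay below wild type 13 on those probes. Without the block those probes had genotype differences of -0.12 ± 0.20 and 0.16 ± 0.23, against 0.14 ± 0.29 for the brightest. Across all collagens the blocked differences ran from -0.27 to 0.56 with a median of 0.05.

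The scan days themselves differed more than the genotypes for most collagens. With genotype in the model, 7 of the 37 collagens passed an adjusted limma p of 0.05 between scan days, against 11.1% of all genes. Of these, 5 were higher on scan day 2 (2.13% of all genes were) and 2 were lower (8.95% of all genes were). Col12a1 was 1.09 ± 0.16 higher on scan day 2 (adjusted p = 0.017), Col16a1 0.76 ± 0.14 (0.032), Col4a4 0.72 ± 0.15 (0.043), Col4a3 0.68 ± 0.15 (0.048) and Col23a1 0.65 ± 0.13 (0.038). Col8a1 fell by 1.59 ± 0.20 on scan day 2 (adjusted p = 0.011) and Col15a1 fell by 1.41 ± 0.21 (0.018). Col1a2 had a difference of -0.59 ± 0.13 and missed the threshold, with an adjusted p of 0.051. At any p, 28 of the 37 collagens were higher on scan day 2, and the median difference was 0.26 over the collagens and 0.04 over all genes. The size of the scan day difference exceeded that of the blocked genotype difference for 31 of the 37 collagens and for 74.5% of all genes. The days did not overlap for 13 of the 37 collagens, and for 39.3% of all genes. Leaving out a single lung lowered the count of 7. The count was 5 with knockout 11 dropped (12.2% of all genes) and 3 with knockout 1 dropped (7.09%). It was 2 with wild type 12 dropped (5.46%). Dropping wild type 11 (5.13%), wild type 13 (3.27%) or knockout 12 (5.43%) left 1. Against 11.1% with every lung kept, the share of all genes thus fell too, except with knockout 11 dropped.

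**Figure D4:**
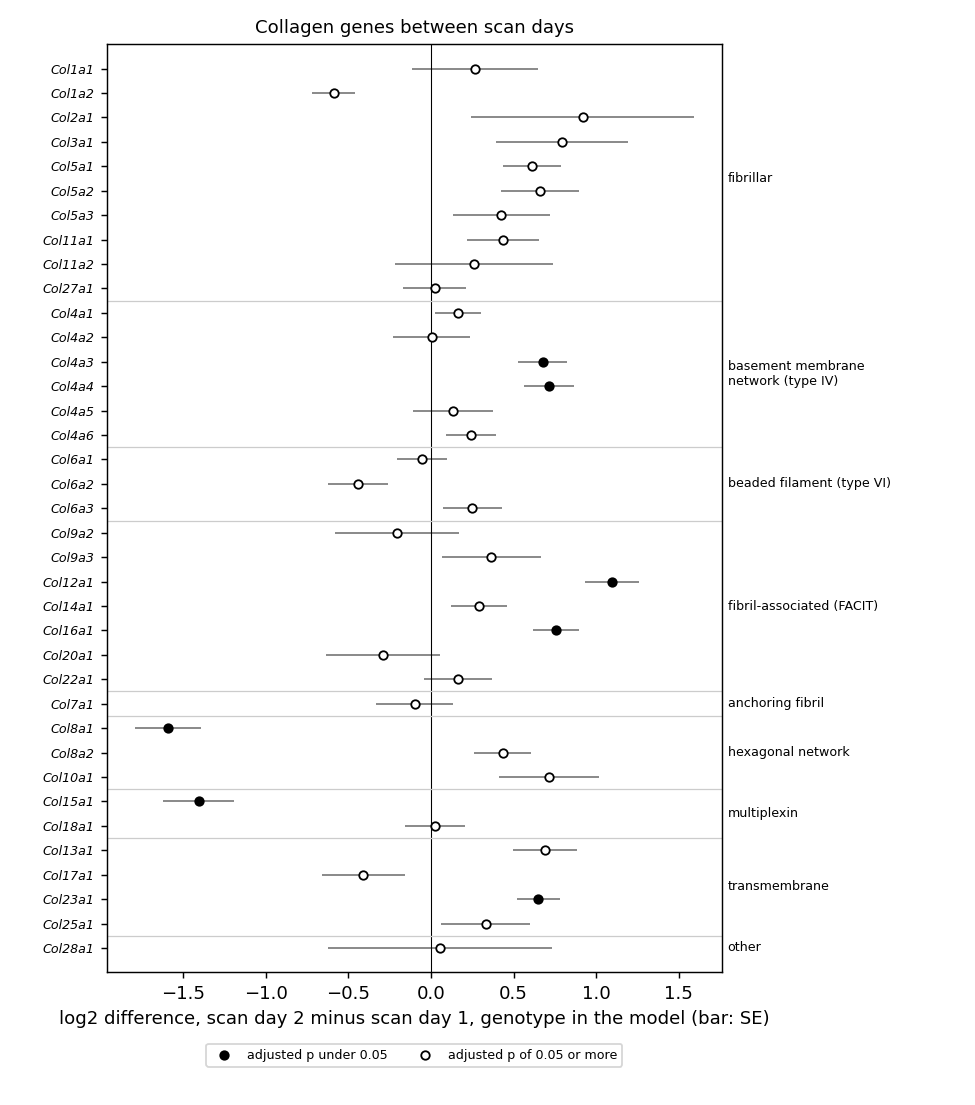
Scan day 2 minus scan day 1 on the log2 scale (horizontal axis) for the 37 measured collagens, with genotype in the model; bars are the SE and filled points passed an adjusted p of 0.05. Filled points lie to the right for Col12a1, Col16a1, Col4a4, Col4a3 and Col23a1 and to the left for Col8a1 and Col15a1.

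Markers of several cell types that make collagens moved with the scan day as well. Of 10 smooth muscle markers, 6 were lower on scan day 2 past the adjusted threshold (8.95% of all genes were), with a median of -1.11; the mean level of the list in a lung was 1.16 to 2.31 in wild-type lungs and 0.98 to 2.68 in knockout lungs. Of 7 measured mesothelial markers, 6 were higher on scan day 2 past it (2.13% of all genes were), with a median of 1.59; their means were 0.28 to 1.84 in wild-type lungs and 0.18 to 1.89 in knockout lungs. The 16 fibroblast markers had a median of -0.05 between scan days, with 1 higher and 2 lower past the threshold, and the 6 measured alveolar type 1 markers had 0.26 with 0 past it. Of 8 alveolar type 2 markers, 3 (Sftpd, Slc34a2 and Etv5) were higher on scan day 2 past the threshold, with a median of 0.36. Skeletal muscle markers stood out in knockout 1, with a list mean of 5.67 against -4.14 to -0.41 in the other 5 lungs, and all 10 were higher in the knockout mean. The part of these cell types in the collagen values was not tested.

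Between genotypes the same lists gave no call past the adjusted threshold. Fibroblast markers were above 0 for 13 of 16 members, with a median of 0.11, and their list means were 2.30 to 2.61 in wild-type lungs and 2.46 to 2.69 in knockout lungs. Smooth muscle markers were above 0 for 9 of 10 and mesothelial markers below 0 for 7 of 7, with medians of 0.33 and -0.49. With scan day as a block these medians became 0.02 and 0.13, so the mesothelial median changed sign and the smooth muscle median came close to 0. Alveolar type 2 and endothelial markers had medians of 0.07 and 0.12, which became 0.22 and 0.02 with the block. The fibroblast median was 0.13 with the block.

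The lungs also differed in their collagens as a whole. Relative to each gene's mean over the 6 arrays, the median collagen was at 0.14 in knockout 12, 0.12 in wild type 11 and 0.09 in wild type 12, the lungs of scan day 2. The median over all genes was at 0.07, -0.03 and -0.03 in the same lungs. For scan day 1 the median collagen was at -0.01 in knockout 1, -0.11 in knockout 11 and -0.17 in wild type 13, and the median over all genes at 0.01, -0.01 and 0.04.

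Several probes to a gene gave a further view of the same RNA. Of the 78 collagen probes, 61 were measured, and 20 genes had more than 1 measured probe. The genotype difference had a single sign over the probes of 11 of these genes and differed in sign for the other 9, with a median gap between probes of 0.20 and a widest gap of 0.64. No single collagen probe had an unadjusted p under 0.05 in the limma fit over probes, and the smallest was 0.149, for a dim second probe of Col6a3 with a difference of 0.71 ± 0.43. Scan days were compared between probes as plain differences of the day means, without genotype in the model. By that measure the probes of 13 genes had a single sign and those of 7 did not. The 3 probes of Col1a1 differed between days by 0.19 (the brightest), -0.75 and -0.89. The last of these probes was dim, with a mean signal of 27.6, and was well above background on 3 arrays alone. The probes of Col8a1 differed by -1.50 (the brightest) and -0.10, and the measured probes of Col4a4 by 0.72 (the brightest) and 0.25. The scan day value of these collagens thus depended on which probe was read. Knockout 1 was the highest lung on each of the 3 Col1a1 probes. The brightest probe was the last along the gene in 22 of the 28 genes with several probes, nearest the 3′ end of the transcript.

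Col2a1 shows how far the probe choice can matter. A pair of its probes overlaps by 40 bases, on the minus strand of chromosome 15, at mm7 positions 97979237 to 97979296 for the brighter and 97979257 to 97979316 for the other. They are printed to show what they share, with the 20 bases particular to each in capitals.

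Col2a1, brighter probe: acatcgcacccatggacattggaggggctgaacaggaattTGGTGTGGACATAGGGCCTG
Col2a1, overlapping probe: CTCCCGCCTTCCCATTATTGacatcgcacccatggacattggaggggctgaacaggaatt

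The brighter probe ranged over 2.37 between the 6 lungs and the overlapping probe over 0.55. The wide interval of Col2a1 given above is therefore that of the brighter probe.

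Genes that act on collagens were followed in 7 lists holding 108 measured genes, of which 0 passed the adjusted threshold between genotypes, 61 were above 0 and 47 below. At an unadjusted p under 0.05, 2 of the 108 were lower and 0 were higher, where 0.95% of all genes passed in either direction, so the lists as a whole were near the background. Mmp9, a gelatinase that degrades denatured and type IV collagen, was at 0.99, 0.20 and -0.52 in wild-type lungs and -2.25, -0.11 and -2.24 in knockout lungs. Its groups overlapped through wild type 13 and knockout 11, and its difference was -1.76 ± 0.69 (adjusted p = 0.9998 by limma). Gp6, the platelet receptor for collagen, was at -0.89, -0.94 and -1.56 in wild-type lungs and -1.95, -1.53 and -2.08 in knockout lungs. Here too a single pair of lungs, wild type 13 and knockout 11, overlapped, and the difference was -0.72 ± 0.26 (adjusted p = 0.9998 by limma).

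The genes that build collagen chains and fibrils fell on both sides of 0. Of 18 genes for chain modification and folding, 10 were above 0 and 8 below, with a median of 0.01. P4ha3, a prolyl hydroxylase subunit, had a difference of -1.79 ± 0.78 with dim signals from -7.81 to -4.29, Mia3, which loads procollagen into export carriers, one of 0.42 ± 0.31, and Leprel2, a prolyl 3-hydroxylase, one of 0.23 ± 0.22. Of 12 genes for propeptide cleavage and cross-linking, 7 were above 0 and 5 below, with a median of 0.03; Adamts3 and Adamts2, which remove N-propeptides, were at -0.31 ± 0.23 and 0.18 ± 0.20, and Loxl2, a cross-linking oxidase, at 0.41 ± 0.41. The 17 fibril-organising matrix proteins had 10 above 0 and 7 below and a median of 0.11, with Tgfbi, a collagen-binding matrix protein, at -0.61 ± 0.32, Comp at -0.44 ± 0.34 and Thbs1 at -0.53 ± 0.50.

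The partners, enzymes and signals around collagen were also divided in sign. The 15 basement membrane partners of type IV collagen had 7 above 0 and 8 below and a median of -0.01, with the laminin chain gene Lama1 at 0.54 ± 0.69 and the nephronectin gene Npnt at 1.38 ± 1.18. The 14 degrading enzymes and inhibitors had 10 above 0 and 4 below and a median of 0.10; besides Mmp9, the collagenase gene Mmp13 was at 0.41 ± 0.31 and the inhibitor gene Timp2 at 0.52 ± 0.43. The 13 collagen receptors had 8 above 0 and 5 below and a median of 0.03; besides Gp6, the endocytic receptor gene Mrc2 was at 0.25 ± 0.21 and the integrin gene Itga11 at 0.17 ± 0.18. The 20 TGF-beta and matrix-inducing genes had 10 above 0 and 10 below and a median of 0.01, with Tgfb1 itself at -0.47 ± 0.21, Cyr61 at -0.31 ± 0.16 and Tgfbr3 at 0.44 ± 0.26. Between scan days, 8 of the 108 genes passed the adjusted threshold, against 11.1% of all genes. Among them, Npnt, Mia3, Timp2, Mmp14, Timp4, Thbs2 and Loxl3 were lower on scan day 2.

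A few collagen genes carry older names on this array and fell outside the symbol pattern. RefSeq names link 1110001D15Rik to Col6a4 and Emid2 to Col26a1, and both were well above background on 6 arrays, with differences of 0.26 ± 0.20 and 0.56 ± 0.29 (adjusted p = 0.9998 for each by limma). The Emid2 difference was larger than the 0.46 of Col17a1, the highest of the 37 collagens. With genes named by RefSeq, Col26a1 had the smallest unadjusted limma p of a collagen, 0.102. The probes named E330026B02Rik (Col6a6) and C530001D20Rik (Col11a1) were well above background on 0 arrays.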

How the data were processed

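RNA from 3 wild-type and 3 Nogo-A/B knockout lungs was measured in a single colour (Cy3) on Agilent mouse design 014868, build mm7. Feature Extraction made the spot intensities; its version is 9.5.1.1 per the file headers and 9.1 per the submitters' processing notes. The deposited intensity (processed signal) was already background-subtracted and detrended by the authors' scanner software, per the file headers. The deposited series matrix holds log2 values; how they were normalized is not stated in these sources, and they served as an alternative.

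Intensities were converted to log2 and set relative to each array's 75th percentile over non-control spots (1146 to 2481). Outlier-flagged spots (48 to 99 per array) were left out, which dropped 30 probes, none of a collagen. No collagen probe was saturated. Genes carry the name given in the files. The 20423 genes whose brightest probe was well above background on at least 3 of 6 arrays were fitted with limma 3.58.1 (R 4.3.3; two-sided, Benjamini-Hochberg adjusted), which was also tested on simulated data; with 3 arrays a group their number limits the precision. Tables used Python 3.11.15, numpy 2.4.6 and pandas 2.3.3, and plots matplotlib 3.10.9.

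All 6 arrays entered each fit, without a covariate for genotype and with genotype in the model for scan day. Values in every lung are given for 10 collagens chosen as the main ones of lung, the measured cartilage collagens, the 10 with the smallest p, any with groups that did not overlap or at background in a single group, and the 4 with the widest range within a group; in other lists up to 3 members with the smallest p are given, except 1 basement membrane partner that is not reported here. The collagens and all lists were chosen with earlier results of these data known. Alternatives covered background correction, scaling, probe choice, filters, scan day, slide, a replicate block, array weights and leaving out each array. The shared replicate numbers 11 and 12 come from different animals; deviations of same-numbered arrays correlated at -0.25 and 0.42, and the second pair shared a scan day, so the numbers were not taken to pair the lungs. Promoters and proteins were not used here.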

Additional observations from a re-analysis of the deposited data

How the results depend on the processing

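No measured collagen passed an adjusted p of 0.05 between genotypes under any alternative run, and over all alternatives the smallest adjusted p of a named collagen was 0.223 in the limma fits. Genes past that threshold among all those tested numbered 0, and 1 with normexp and quantile normalization, with the series matrix values or with trended, robust variance, and 2 with median scaling, with slide as a random block or with array weights; without a single lung the count was 0 to 1. The counts at an unadjusted limma p that follow leave out the fits of a single scan day, which had 1 lung in a group. Collagens at an unadjusted limma p under 0.05 numbered 1 with scan day as a block (Col23a1, 2.16% of all genes). They numbered 6 with array weights (20.5% of all genes). Without a single lung that count was 0 to 2. It reached 2 without wild type 13 (Col12a1 and Col13a1, 7.43% of all genes) and without knockout 12 (Col14a1 and Col17a1, 4.18% of all genes). Collagens whose groups do not overlap numbered 0 to 7 without a single lung (6.63% to 29.0% of all genes). The collagen median ran from -0.08 to 0.16 over the alternatives, against 0.0010. With a replicate block on the shared numbers the median was -0.08 and 0 collagens had p under 0.05; it changed no call. Scaling changed the share of all genes below 0 from 45.4% to 55.6% with median scaling, where 22 of the 37 collagens were below 0 in place of 18. Collagens called between scan days numbered 3 of 40 with no filter on dim probes (6.78% of all genes). They numbered 8 to 10 with other scalings or a stricter filter (9.49% to 18.2% of all genes). Without a single lung they numbered 1 to 5 (3.27% to 12.2% of all genes). Of the 24 named collagens, 5 (Col12a1, Col17a1, Col1a2, Col4a6 and Col6a1) kept their sign throughout, and 19 changed it in at least 1 alternative. The cause of these changes was not tested. Signals near background limit Col10a1 and Col28a1.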
